A study of Mus musculus with 27 samples.

Results

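LPS and IL-4+anti-CD40 are the model stimuli of T cell-independent and T cell-dependent B cell responses, and disulfiram (DSF) was added to both. The question here was which differences between the stimuli were still present once both cultures held DSF. The comparison took all genes of the first experiment in the 4 LPS+DSF libraries and the 4 IL-4+anti-CD40+DSF libraries, 8 of the 27 libraries in the series. The count table listed 54532 genes, of which 14352 passed the filter on low counts in these 8 libraries. The cells were spleen B cells of wild-type C57BL6 mice, enriched by negative selection with magnetic beads and cultured for 3 h, and both groups received DSF at 1 µM. The groups therefore differed in the stimulus and shared the inhibitor. The counterpart was the 4 LPS and the 4 IL-4+anti-CD40 libraries without DSF, which held vehicle (DMSO) and share no library with the first comparison. Bulk RNA of a negatively selected culture keeps whatever other cells the selection left, and here fewer cells of a type cannot be told apart from less RNA per cell. A second experiment had 1 library for each of these conditions.

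LPS binds CD14 and the TLR4 complex and signals through MyD88 to NF-κB and through TRIF to IRF3, which leads to type I interferon and the interferon-stimulated genes. IL-4 binds its receptor, activates JAK kinases and phosphorylates STAT6, the factor behind the germline IgE and IgG1 transcripts and the low-affinity IgE receptor CD23. CD40 recruits TRAF adaptors and feeds both arms of NF-κB. DSF is an alcohol-aversion drug that inhibits aldehyde dehydrogenase, and its metabolite binds copper.

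The libraries with DSF held 17898147 to 20967858 counts with LPS and 20137317 to 23632992 with IL-4+anti-CD40. B cell markers summed to 3719 to 3961 CPM (counts scaled to library size and by the trimmed mean of M values) with LPS+DSF and 3969 to 4131 with IL-4+anti-CD40+DSF, while T cell markers summed to 1.03 to 2.12 and 1.34 to 2.65 CPM. Libraries 3 and 4 of the IL-4+anti-CD40+DSF group had higher interferon-stimulated and inflammatory TLR target transcripts than libraries 1 and 2. Libraries 3 and 4 of IL-4+anti-CD40 without DSF had higher levels of both, and also of heat shock and oxidative stress transcripts, than libraries 1 and 2. The labels name no batch. The labels do not say that replicates came from separate mice or cultures. The paper's figure legend gives 4 biologically independent samples for its expression values, without saying what separated them. The p-values measure the spread between these libraries, which may in part be technical.

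Stimulus differences were widespread with DSF present. Of the 14352 genes, 3128 were higher with LPS+DSF and 3349 were higher with IL-4+anti-CD40+DSF in edgeR's quasi-likelihood test at an adjusted p under 0.05, which is 21.8% and 23.3% of the genes tested. Most were small: 763 genes (5.32%) were at least 2-fold higher with LPS+DSF and 332 (2.31%) at least 2-fold higher with IL-4+anti-CD40+DSF. The 4 values of the groups did not overlap for 2725 genes higher with LPS (19%) and 3235 higher with IL-4+anti-CD40 (22.5%). Without DSF, 39.7% of 14078 genes were called: LPS libraries were the higher ones for 3145 genes (22.3%), 1161 of them (8.25%) at least 2-fold, and IL-4+anti-CD40 libraries for 2439 (17.3%), 478 of them (3.4%) at least 2-fold. Scaling by total counts put the median log2 fold change of all genes at -0.14 in both comparisons and turned the split of calls from 48.3% to 28.7% higher with LPS when DSF was present, and from 56.3% to 34% without DSF, so the balance between the sides depended on the scaling.

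Among 13608 genes tested in both comparisons, 3625 were called in the same direction with and without DSF. They made up 66.4% of the 5462 genes called without DSF and 57.1% of the 6354 called with it. Pearson's r of the log2 fold changes was 0.85 across these genes and Spearman's rho 0.64, given as a description over genes, which are not independent replicates. The larger differences were kept more often. Of the 1103 genes at least 2-fold higher with LPS without DSF, 965 (87.5%) were called in the same direction with DSF, and of the 425 at least 2-fold higher with IL-4+anti-CD40, 344 (80.9%) were. Their median log2 fold change was 1.67 without DSF and 1.13 with it on the LPS side, and -1.49 and -1.04 on the IL-4+anti-CD40 side. That choice used the values without DSF, so it was also made the other way: 707 genes at least 2-fold higher with LPS+DSF had a median of 1.69 with DSF and 2.15 without, and 311 genes on the other side had -1.36 and -1.46. The difference between the 2 comparisons, fitted as an interaction over 16 libraries, passed for 2252 of 15130 genes (14.9%), of which 1199 shifted toward LPS with DSF (7.92%) and 1053 toward IL-4+anti-CD40 (6.96%). With total-count scaling 36.7% of these calls shifted toward LPS in place of 53.2%. Without libraries 3 and 4 of IL-4+anti-CD40 without DSF the counts were 1409 and 1465. A fit that added the 4 unstimulated libraries, which lay far apart, called 205 and 710, and among genes named below it ended the call with DSF for Edn1, Il4ra, Traf1, Prdm1, Cd44, Cd38, Fcgr2b, Cd14, Hspa1a, Hspa1b, Mt1, Chac1, P2rx5 and 4930562C15Rik.

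**Figure D1:**
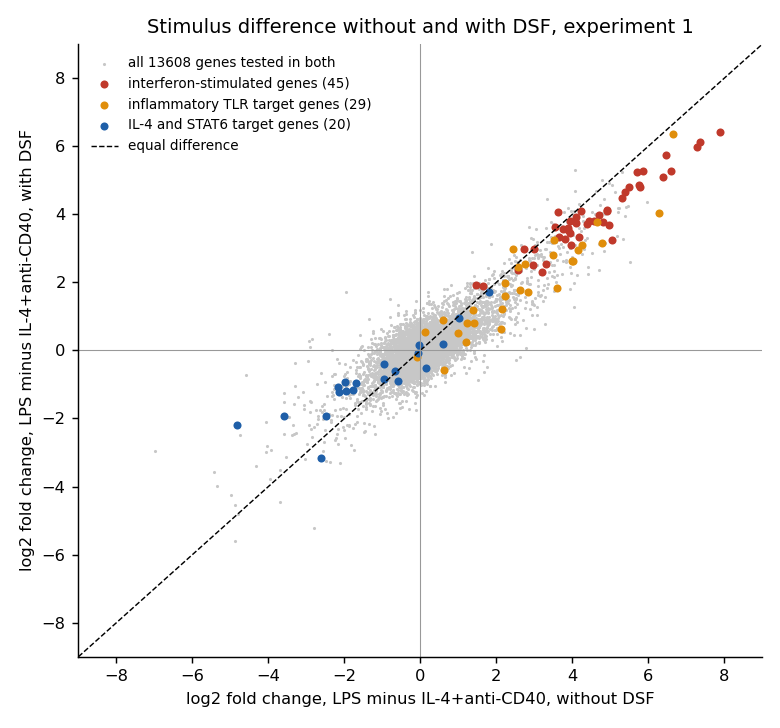
Log2 fold change of LPS over IL-4+anti-CD40 for each of 13608 genes, without DSF on the x axis and with DSF on the y axis, with 3 gene lists in colour and a dashed line where both are equal. The 45 interferon-stimulated genes lie at the upper right, between 1.88 and 6.42 on the y axis, and most of the coloured points sit closer to 0 on the y axis than on the x axis.

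Every tested interferon-stimulated gene separated the stimuli under DSF. All 45 tested members of 46 in the list were higher with LPS+DSF, each at least 2-fold, with no overlap between the groups. Of all genes tested, 21.8% were higher with LPS+DSF, 5.32% were at least 2-fold higher and 19% did not overlap in that direction. The list's median log2 fold change was 3.79 against -0.01 for all genes tested. Like the other lists, it was chosen with earlier results of these data known. Without DSF the same 45 were higher with LPS, beside 22.3% of all genes, with a median of 4.23. Ifit3, an RNA-binding protein of the antiviral response, was at 770.1, 774, 764 and 808 CPM in the LPS+DSF libraries and at 2.88, 4.74, 17.8 and 24.0 CPM in the IL-4+anti-CD40+DSF libraries. The first group was flat and the second split in pairs, yet its highest library stayed far below the lowest LPS+DSF library. The log2 fold change was 5.98 ± 0.38 (SE, n = 4 libraries a group, adjusted p = 1.18e-09 by edgeR), and unstimulated cells held 10.5 to 30.1 CPM. Rsad2, the antiviral enzyme viperin, was at 1013, 999, 983 and 1048 CPM against 7.97, 10.6, 39.3 and 50.03 CPM, a log2 fold change of 5.24 ± 0.39 (edgeR adjusted p = 1.02e-08). Its LPS level was higher with DSF than without, where it stood at 547, 547, 567 and 529 CPM, a comparison not tested here. Cxcl10, a chemokine for activated T cells, was at 572, 579, 572 and 598 CPM against 4.24, 10.2, 23.6 and 29.6 CPM (log2 fold change 5.11 ± 0.33). Mx1, a GTPase that blocks influenza virus, had a log2 fold change of 5.27 ± 0.31, and Ifit1, Ifit2, Ifit3b and Ifit1bl1 had values of 5.26, 5.73, 6.12 and 6.42. The Ifit genes share sequence, so the split of reads between them is uncertain.

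Factors that drive these genes moved as well. Irf7, the amplifier of interferon production, was at 587, 551, 599 and 610.3 CPM with LPS+DSF and 22.6, 27.7, 53.2 and 68.2 CPM with IL-4+anti-CD40+DSF. The groups did not overlap, with a log2 fold change of 3.79 ± 0.24. Irf1 had the smallest value of the list, 1.88 ± 0.08. With all 16 libraries 4 of the 45 genes differed between the comparisons with and without DSF, all shifted toward IL-4+anti-CD40: Gbp3 at -0.71 ± 0.10, Isg20 at -0.80 ± 0.25, Ifi204 at -0.84 ± 0.23 and Oas2 at -1.22 ± 0.40 (edgeR adjusted p = 5.97e-05, 0.0345, 0.0203 and 0.0457). Of all genes tested 6.96% shifted that way, so 4 of 45 is near that share. The calls of Isg20 and Oas2 ended in DESeq2, and the count of 4 rested on the split IL-4+anti-CD40 libraries. Without libraries 3 and 4 of the group without DSF it was 31, all toward IL-4+anti-CD40, with a median shift of -1.31, and without libraries 3 and 4 of both IL-4+anti-CD40 groups it was 30, of which 26 toward IL-4+anti-CD40, with a median shift of -0.61. The counts of all genes shifted toward IL-4+anti-CD40 in these 2 settings were 1465 and 1402. The difference with DSF itself was called for all 45 members when either pair of IL-4+anti-CD40+DSF libraries was left out. For Ifit3 the interaction was -1.23 ± 0.67 with all libraries and did not pass, and it was -2.96 and passed without libraries 3 and 4 of IL-4+anti-CD40.

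The promoter windows of 4 of these genes are shown because the letters of an interferon-stimulated response element lie in them. They run from 250 bases before to 50 after the start in RefSeq on GRCm38.p6, 5′ to 3′ on the gene's strand, and capitals mark each match, on either strand, to GAAA followed after 2 free bases by GAAA. Ifit3 lies at chr19:34583279-34583578 (plus strand), Ifit1 at chr19:34640639-34640938 (plus strand), Rsad2 at chr12:26456403-26456702 (minus strand) and Cxcl10 at chr5:92348840-92349139 (minus strand).
Ifit3: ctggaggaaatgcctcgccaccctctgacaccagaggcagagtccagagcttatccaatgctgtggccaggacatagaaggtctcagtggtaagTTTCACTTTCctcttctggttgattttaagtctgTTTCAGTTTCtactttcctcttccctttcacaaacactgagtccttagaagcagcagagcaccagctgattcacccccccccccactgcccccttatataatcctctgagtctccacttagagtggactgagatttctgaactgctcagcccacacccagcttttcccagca
Ifit1: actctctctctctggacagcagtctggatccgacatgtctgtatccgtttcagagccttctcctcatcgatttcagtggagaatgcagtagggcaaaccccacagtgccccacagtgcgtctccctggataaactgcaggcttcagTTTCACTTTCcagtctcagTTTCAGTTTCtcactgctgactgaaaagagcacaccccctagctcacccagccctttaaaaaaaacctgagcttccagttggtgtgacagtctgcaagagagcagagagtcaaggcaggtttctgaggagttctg
Rsad2: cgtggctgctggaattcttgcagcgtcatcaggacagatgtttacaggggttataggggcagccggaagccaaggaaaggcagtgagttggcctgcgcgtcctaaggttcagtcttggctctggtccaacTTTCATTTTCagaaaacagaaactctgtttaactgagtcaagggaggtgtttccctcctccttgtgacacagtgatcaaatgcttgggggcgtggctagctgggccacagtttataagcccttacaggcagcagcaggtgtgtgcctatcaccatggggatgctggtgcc
Cxcl10: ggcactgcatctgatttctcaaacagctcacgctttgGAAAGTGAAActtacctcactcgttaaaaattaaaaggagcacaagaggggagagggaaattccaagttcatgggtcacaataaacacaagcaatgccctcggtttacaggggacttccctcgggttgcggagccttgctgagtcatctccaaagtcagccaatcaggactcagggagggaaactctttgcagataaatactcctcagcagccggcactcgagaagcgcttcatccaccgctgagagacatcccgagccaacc
The first matching letter lay 156 and 122 bases before the start in Ifit3, 104 and 85 in Ifit1, 120 in Rsad2 and 213 in Cxcl10. These letters stood in 3.44% of all 32851 promoter windows of the table and in 3.32% of the windows of genes tested with DSF. They stood in 15.6% of 622 windows of genes at least 2-fold higher with LPS+DSF, in 43.0% of 107 windows of those at least 8-fold higher, and in 2.14% of 327 windows of genes at least 2-fold higher with IL-4+anti-CD40+DSF. In the interferon-stimulated list, for which 34 of 45 genes had a window, 23 of 42 windows held them. A match of letters is a description of the window and not a bound site.

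Inflammatory target genes of TLR signalling also stayed on the LPS side. Of 29 members tested out of 36 in the list, 26 were higher with LPS+DSF, beside 21.8% of all genes. Of the 26, 20 were at least 2-fold higher. None was higher with IL-4+anti-CD40+DSF, and the median log2 fold change was 1.83 with DSF and 2.57 without. Interactions passed for 7 of 33 members tested over 16 libraries, 5 of them toward IL-4+anti-CD40, beside 14.9% of all genes. Without libraries 3 and 4 of IL-4+anti-CD40 they passed for 18 of 34, of which 16 toward IL-4+anti-CD40. Il12b, the shared chain of IL-12 and IL-23, was at 12.1, 11.5, 14.6 and 14.9 CPM with LPS+DSF and at 0, 0.156, 0.0929 and 0.369 CPM with IL-4+anti-CD40+DSF. The groups lay far apart, with a log2 fold change of 6.35 ± 0.29 (edgeR adjusted p = 1.94e-11) and 6.64 ± 0.24 without DSF. Nfkbiz, a nuclear regulator that NF-κB induces and that is needed for a second wave of cytokine genes, was at 1056, 1104, 1065 and 1109 CPM against 180.1, 189.9, 217 and 213 CPM. Its log2 fold change was 2.46 ± 0.06 with DSF and 2.57 ± 0.07 without, and the difference between these did not pass (interaction -0.05 ± 0.09, edgeR adjusted p = 0.751).

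The cytokines and chemokines followed with smaller values. Tnf was at 344, 329, 353 and 375 CPM against 28.0, 39.3, 84.3 and 94.5 CPM, with the same split of the IL-4+anti-CD40+DSF libraries as Ifit3 and no overlap between the groups. Il6, a cytokine of plasma cell differentiation, was at 15.4, 15.5, 13.1 and 14.6 CPM against 1.77, 1.20, 2.74 and 1.75 CPM. Log2 fold changes were 2.53 ± 0.25 for Tnf, 2.98 ± 0.17 for Il6, 2.62 ± 0.21 for Il1b, 1.595 ± 0.13 for the inhibitory cytokine Il10, and 3.23 ± 0.18, 2.79 ± 0.30 and 2.95 ± 0.36 for the chemokines Ccl3, Ccl4 and Ccl5. The size of these values depended on the pair of IL-4+anti-CD40+DSF libraries used, though each stayed called. Without libraries 3 and 4 they were 3.39 for Tnf, 3.47 for Il1b, 3.94 for Ccl4 and 4.52 for Ccl5, and without libraries 1 and 2 they were 1.98, 2.10, 2.16 and 2.23. Nfkbia and Tnfaip3, which are brakes on NF-κB, were the members whose interaction passed toward LPS: 0.88 against 0.59 without for Nfkbia and 0.54 against an uncalled 0.12 for Tnfaip3, with interactions of 0.35 ± 0.08 and 0.49 ± 0.07 (edgeR adjusted p = 0.00761 and 4.82e-05). Il1b, the acute phase gene Saa3, the iron-binding Lcn2 and the endothelin gene Edn1 shifted the other way, by -1.35, -2.18, -1.72 and -1.44 on the log2 scale. The Saa3 interaction ended when single libraries were left out and was -6.51 without libraries 3 and 4 of IL-4+anti-CD40. Edn1 was left with 0.62 ± 0.22, which was 0.17 and not called without libraries 1 and 2 of IL-4+anti-CD40+DSF and 1.28 without libraries 3 and 4. Of the members that did not pass with DSF, Clec4e was at 142, 127, 143 and 148 CPM and 72.6, 96.2, 158 and 149 CPM, and those groups overlapped. Without libraries 3 and 4 of IL-4+anti-CD40+DSF it was called at 0.74.

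**Figure D2:**
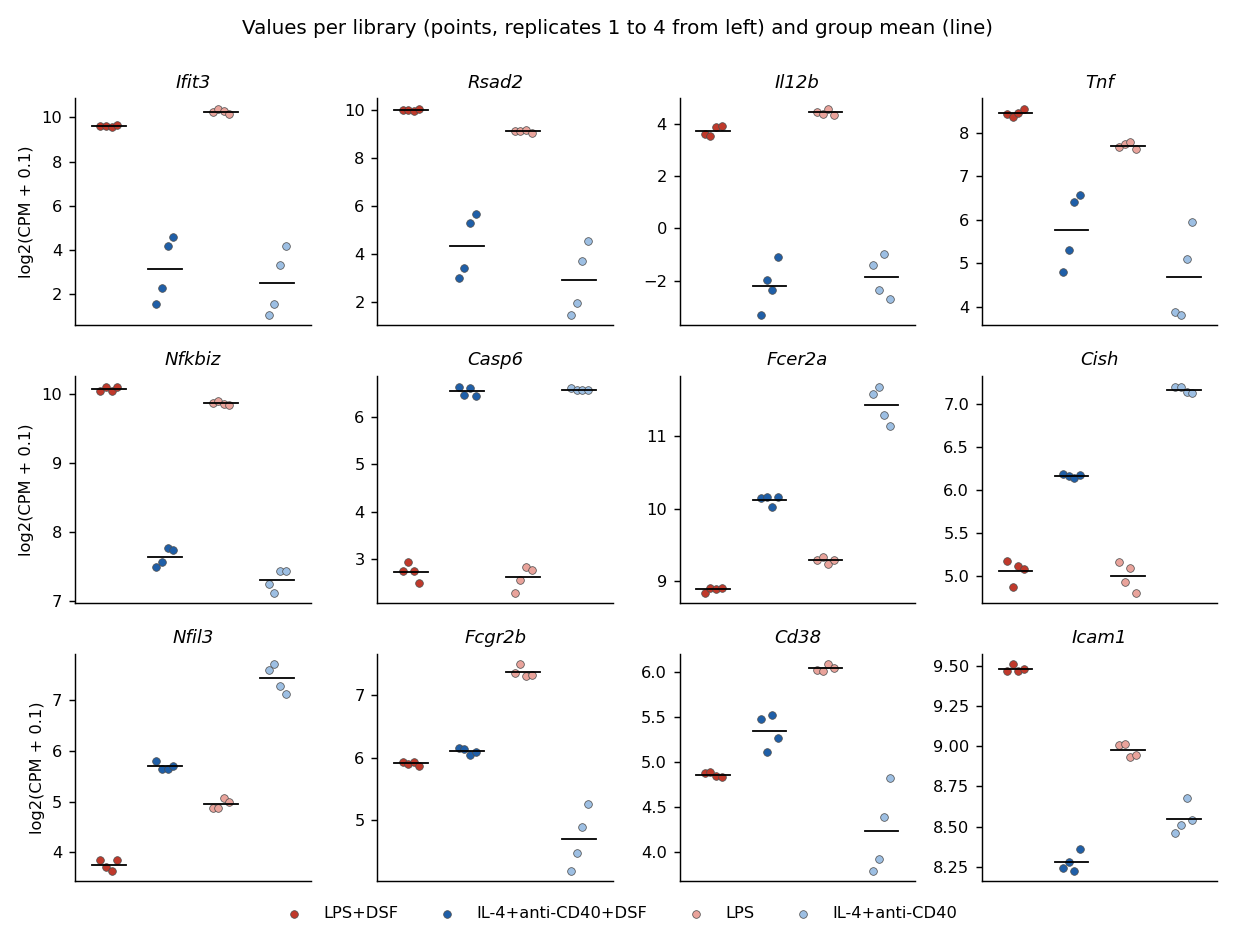
Values of 12 genes as log2 of CPM plus 0.1 in each library of the 4 stimulated groups, with the group mean as a line. Ifit3, Rsad2, Il12b, Tnf and Nfkbiz are higher with LPS and Casp6, Fcer2a, Cish and Nfil3 higher with IL-4+anti-CD40 in both pairs, while Fcgr2b and Cd38 change sides when DSF is present.

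Genes that IL-4 and STAT6 are known to induce remained on the IL-4+anti-CD40 side, with smaller differences. Of 20 members tested out of 21, 15 were higher with IL-4+anti-CD40+DSF, 8 of them at least 2-fold, 2 were higher with LPS+DSF and 3 were not called. Over all genes 23.3% were higher with IL-4+anti-CD40+DSF and 21.8% with LPS+DSF. The list's median was -0.90 with DSF and -1.33 without. Fcer2a, the gene of CD23, was at 458, 482, 476 and 478 CPM with LPS+DSF and 1137, 1152, 1038 and 1147 CPM with IL-4+anti-CD40+DSF. Without DSF the values were 627, 649, 605 and 626 CPM and 3067, 3302, 2512 and 2271 CPM, so that both levels were lower with DSF and the IL-4+anti-CD40 level by more. The log2 fold change was -1.22 ± 0.05 with DSF and -2.15 ± 0.11 without, and their difference was 0.99 ± 0.12 (edgeR adjusted p = 1.46e-05). Cish, a feedback inhibitor that STAT factors induce and whose annotation overlaps 2 predicted genes, was at 36.1, 29.3, 34.7 and 33.8 CPM against 72.5, 71.3, 70.4 and 71.9 CPM. Without DSF it was at 35.6, 30.4, 34.0 and 27.9 CPM against 147, 147, 141 and 139 CPM. The LPS level hardly differed between the treatments and the IL-4+anti-CD40 level was lower with DSF, giving log2 fold changes of -1.08 ± 0.06 and -2.16 ± 0.07 and an interaction of 1.14 ± 0.10 (edgeR adjusted p = 1.82e-07).

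Further members showed the same order. Il4ra, the IL-4 receptor chain that IL-4 itself induces, was at 203 to 205 CPM with LPS+DSF and 269.8 to 279 CPM with IL-4+anti-CD40+DSF, with a log2 fold change of -0.41 against -0.97 without DSF. Nfil3, a transcription factor needed for IgE switching, was at 14.3, 13.0, 12.3 and 14.2 CPM against 55.4, 49.9, 49.7 and 51.7 CPM and kept a log2 fold change of -1.92 ± 0.07. Xbp1, a factor of the secretory programme of plasma cells, was at 108 to 118 CPM against 219 to 226 CPM, with -0.95 with DSF and -1.69 without. Interactions toward LPS passed for Il4ra (0.62), Nfil3 (0.63) and Xbp1 (0.80), as they did for the Ig transcripts below, 7 of the 20 members in all. Socs1, the inhibitor of JAK kinases, went the other way. It was at 52.1, 54.1, 52.8 and 55.3 CPM against 70.3, 72.7, 83.9 and 83.8 CPM with DSF, a log2 fold change of -0.52 ± 0.06, against 0.14 ± 0.09 without DSF, which did not pass, and the difference was -0.60 ± 0.11 (edgeR adjusted p = 0.000765). Ccl17, a chemokine for T helper cells, kept -3.16 ± 0.30, at 0.546, 0.343, 0.772 and 0.283 CPM against 3.18, 3.59, 5.16 and 5.58 CPM. The 2 members higher with LPS+DSF were Socs3, at 0.95 ± 0.05, and Batf, a factor of class switching, at 1.71 ± 0.06, and both were higher with LPS without DSF too. Ccl22 was not called with all libraries (0.18 ± 0.18), was higher with LPS+DSF, at 0.73, without libraries 3 and 4 of IL-4+anti-CD40+DSF, and was higher with IL-4+anti-CD40+DSF, at -0.23, without libraries 1 and 2.

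Among the IL-4 and STAT6 list, Ccl17 and Fcer2a were the members at least 2-fold higher with IL-4+anti-CD40+DSF whose promoter window held TTC and GAA with 4 free bases between them, the spacing that STAT6 is known to bind. Capitals mark that match, and the windows are those of chr8:94810203-94810502 (plus strand) and chr8:3690812-3691111 (minus strand), the latter 1 of 3 windows of the gene.
Ccl17: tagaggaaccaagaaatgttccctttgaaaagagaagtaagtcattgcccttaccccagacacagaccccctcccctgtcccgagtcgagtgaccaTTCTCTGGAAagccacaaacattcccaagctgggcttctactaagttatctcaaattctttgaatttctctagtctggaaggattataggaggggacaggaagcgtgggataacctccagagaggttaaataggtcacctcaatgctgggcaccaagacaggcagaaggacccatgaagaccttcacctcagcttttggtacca
Fcer2a: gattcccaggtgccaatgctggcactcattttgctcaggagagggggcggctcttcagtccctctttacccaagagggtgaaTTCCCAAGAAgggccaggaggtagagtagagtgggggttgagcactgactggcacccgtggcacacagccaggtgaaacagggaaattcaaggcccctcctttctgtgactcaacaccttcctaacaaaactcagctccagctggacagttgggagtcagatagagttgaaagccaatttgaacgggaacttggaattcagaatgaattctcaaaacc
The match began 154 bases before the start in Ccl17 and 168 in Fcer2a. The pattern, which reads the same on both strands, stood in 6.95% of all windows and in 5.62% of windows of genes tested with DSF. It stood in 11.3% of windows of genes at least 2-fold higher with IL-4+anti-CD40+DSF. With LPS+DSF the share was 7.72% for genes at least 2-fold higher and 10.3% for those at least 8-fold higher. In the IL-4 and STAT6 list 3 of 20 windows held the pattern, and in the interferon-stimulated list 7 of 42. The pattern was therefore not particular to the IL-4+anti-CD40 side. The shorter spacing with 3 free bases stood in 8.3% of all windows, in 11.6% of those at least 2-fold higher with LPS+DSF and in 6.12% of those at least 2-fold higher with IL-4+anti-CD40+DSF.

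The largest fold changes on the IL-4+anti-CD40+DSF side belonged to genes at low levels. By the rule for named genes these were Chil4, Ccl24, Azin2, Cd300lb, Lpl, Il31ra, Cldn1, Casp6, Hfe and Clec10a. Casp6, an executioner caspase, was the most abundant of them, at 6.68, 7.59, 6.69 and 5.55 CPM with LPS+DSF and 99.4, 87.3, 97.4 and 86.9 CPM with IL-4+anti-CD40+DSF. Its log2 fold change was -3.79 ± 0.08 (edgeR adjusted p = 9.44e-15) with DSF and -3.95 ± 0.10 without, and unstimulated cells held 15.1 to 21.1 CPM. Ccl24, an eosinophil chemokine, was at 0.364, 0.285, 0.386 and 0.283 CPM against 24.1, 18.02, 14.1 and 10.1 CPM. Lpl, lipoprotein lipase, was at 1.70, 1.08, 2.19 and 1.47 CPM against 55.8, 44.6, 23.0 and 18.2 CPM. Both were lower in libraries 3 and 4 than in 1 and 2 of IL-4+anti-CD40+DSF, and neither overlapped with the LPS+DSF libraries, with log2 fold changes of -5.61 ± 0.34 and -4.45 ± 0.37. Chil4, a chitinase-like gene, had 0 counts in every LPS+DSF library and 0.858, 1.04, 0.604 and 0.739 CPM in the other group, at least 4.53-fold higher against a floor of 3 counts a library. By the same floor Azin2, an antizyme inhibitor, was at least 7.60-fold and Il31ra, a receptor chain for IL-31, at least 13.6-fold higher with IL-4+anti-CD40+DSF. Log2 fold changes of the lectin Clec10a, the iron regulator Hfe, the tight junction gene Cldn1 and the myeloid receptor Cd300lb were -3.25, -3.58, -3.99 and -4.54.

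Several of these genes are known from macrophages, and macrophage markers moved the same way. The summed level of the 7 myeloid markers was 134 to 139 CPM with LPS+DSF and 206 to 286 CPM with IL-4+anti-CD40+DSF, against 523 to 659 CPM in unstimulated cells. Without DSF the sum was 115 to 130.4 CPM with LPS and 166 to 196 CPM with IL-4+anti-CD40. Of the 6 tested, 4 were higher with IL-4+anti-CD40+DSF and 1 with LPS+DSF, beside 23.3% and 21.8% of all genes. Csf1r, the receptor for the macrophage growth factor, was at 12.8, 13.0, 10.5 and 13.2 CPM against 68.3, 65.1, 46.7 and 45.1 CPM (log2 fold change -2.16 ± 0.13), and Lyz2, a lysozyme, at 66.3, 72.0, 69.6 and 74.3 CPM against 155, 132, 119.9 and 105 CPM (log2 fold change -0.84 ± 0.09). The part of other cells in the genes above was not tested. On the LPS+DSF side the rule named Ifit1bl1, Il12b, Ifit3b, Ifit3, Ifit2, Mx1, Ifit1, Rsad2, Cxcl10 and Olfr56. Olfr56, an olfactory receptor by name, was at 48.1, 44.1, 48.4 and 45.4 CPM against 1.11, 0.833, 1.53 and 2.26 CPM, but its annotated span overlaps 10 other genes, among them the interferon-inducible GTPases Ifi47, Tgtp1 and Tgtp2, so its reads cannot be told apart from theirs.

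Receptors and adaptors of the 2 stimuli differed less. In the list of LPS receptor and TLR adaptor genes 10 of 20 were higher with LPS+DSF and 6 with IL-4+anti-CD40+DSF, beside 21.8% and 23.3% of all genes, so the second count is near that share. Ly86, the partner of the TLR4-like receptor CD180, was at 124, 133, 124 and 135 CPM with LPS+DSF and 55.0, 42.9, 54.4 and 49.2 CPM with IL-4+anti-CD40+DSF (log2 fold change 1.37 ± 0.07). Myd88, the main TLR adaptor, was at 92.6 to 103 against 43.0 to 46.1 CPM (1.16 ± 0.05), and Ticam1, which encodes TRIF, was higher with IL-4+anti-CD40+DSF (-0.61 ± 0.06). Tlr4 itself was at 5.04, 4.80, 5.85 and 7.19 CPM and 6.26, 4.95, 4.78 and 4.80 CPM and was not called. Cd14, the LPS co-receptor, was at 31.5, 35.5, 38.3 and 36.1 CPM against 11.6, 15.99, 28.7 and 27.8 CPM, and the groups did not overlap. Its difference went from 2.48 without DSF to 0.76 with it (interaction -1.66 ± 0.39, edgeR adjusted p = 0.00642). The value with DSF was 1.36 without libraries 3 and 4 of IL-4+anti-CD40+DSF and 0.34 without libraries 1 and 2. Cd14 is also a gene of monocytes.

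In the list of IL-4 receptor and CD40 signalling genes 10 of 16 were higher with LPS+DSF and 5 with IL-4+anti-CD40+DSF. Among CD40 and non-canonical NF-κB target genes 13 of 22 were higher with LPS+DSF and 3 with IL-4+anti-CD40+DSF. The shares of all genes were 21.8% and 23.3%. The counts on the IL-4+anti-CD40+DSF side were near that share in the first list and below it in the second. Cd40 was at 548, 507, 553 and 563 CPM against 281, 276, 317 and 309.8 CPM, a log2 fold change of 0.89 ± 0.05. Ebi3, a subunit of IL-27 and IL-35, had 1.69 ± 0.08, and Jak1, the kinase of the IL-4 receptor, 0.78 ± 0.05. Map3k14, the kinase of the non-canonical arm, was higher with IL-4+anti-CD40+DSF, at -0.59 ± 0.06. Icam1, an adhesion molecule induced by NF-κB, gained difference with DSF. It was at 707, 728, 708 and 713 CPM against 304, 311, 299.7 and 329 CPM with DSF and 514, 516, 489 and 493 CPM against 352, 365, 410.4 and 372 CPM without. The LPS libraries were higher and the IL-4+anti-CD40 libraries lower with DSF than without, and the log2 fold changes were 1.22 ± 0.04 and 0.43 ± 0.05 (interaction 0.85 ± 0.07, edgeR adjusted p = 5.13e-08). Nfkb2 and the adaptor Traf1 shifted toward LPS as well, by 0.37 ± 0.06 and 0.34 ± 0.06. The homing receptor Ccr7 lost its difference: 672 to 760.5 CPM against 678 to 763 CPM with DSF, where the groups overlapped, and 906 to 971 CPM against 557 to 614 CPM without (interaction -0.64 ± 0.07). With total-count scaling Ccr7 was called higher with IL-4+anti-CD40+DSF, at -0.13.

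**Figure D3:**
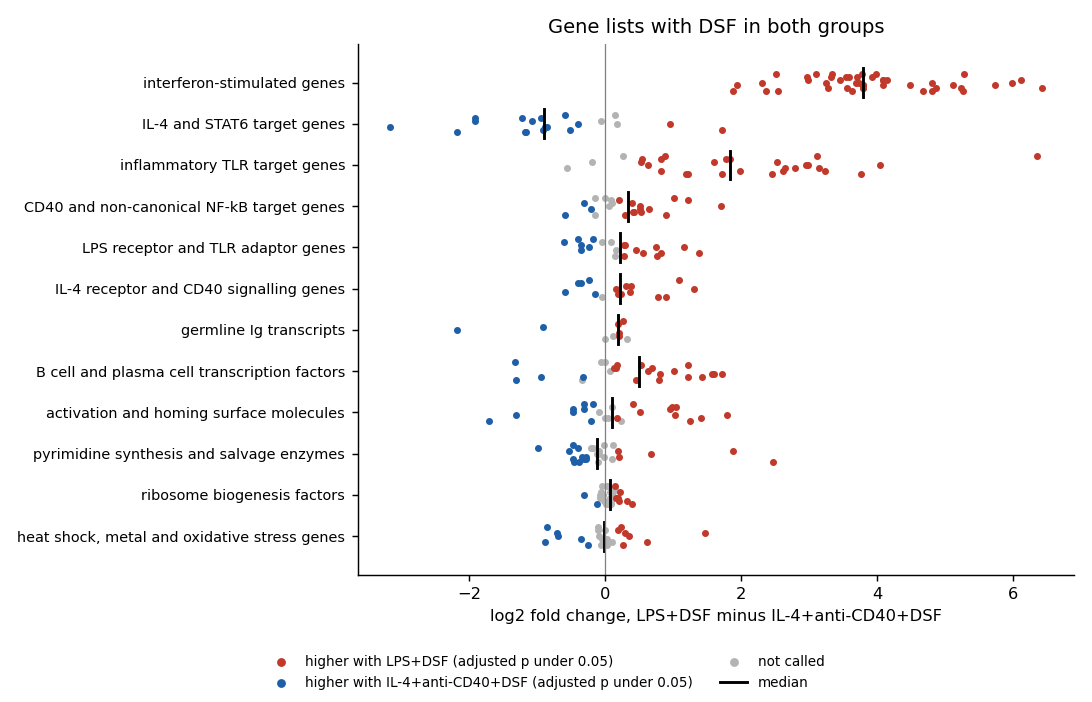
Log2 fold change of LPS+DSF over IL-4+anti-CD40+DSF for each tested member of 12 gene lists, coloured by call, with the median of each list as a line. The interferon-stimulated list lies wholly to the right, with a median of 3.79, and the IL-4 and STAT6 list mostly to the left, with a median of -0.90.

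Transcription factors of B cell and plasma cell fate held stimulus differences with DSF in 20 of 24 members. Of these, 16 were higher with LPS+DSF and 4 with IL-4+anti-CD40+DSF, beside 21.8% and 23.3% of all genes. The second count was not above its share. Myc, the driver of cell growth, was at 1020.2, 1075, 1025 and 1064 CPM against 385, 378, 403 and 417 CPM. Without DSF it was at 1407, 1502, 1402 and 1423 CPM against 611, 639, 558 and 536 CPM, lower with DSF in both stimuli, and the log2 fold change was 1.42 ± 0.05 with DSF and 1.30 ± 0.06 without. Irf4, which sets the path to plasma cells, had 0.68 ± 0.04 and 0.61 ± 0.04. Ahr, the aryl hydrocarbon receptor, was higher with IL-4+anti-CD40, at -1.31 ± 0.05 and -1.26 ± 0.05. The interaction did not pass for these 3 genes. It passed for 15 of the 24, beside 14.9% of all genes tested. Bach2 and Bcl6, repressors that hold back plasma cell fate, had smaller differences with DSF: Bach2 went from 1.81 to 1.21 and Bcl6 from 1.39 to 0.63 (interactions -0.54 ± 0.07 and -0.70 ± 0.08). Bcl6 was at 75.9, 90.6, 76.9 and 87.0 CPM with IL-4+anti-CD40+DSF against 55.8, 55.3, 54.9 and 60.8 CPM without DSF, while the LPS libraries held 124 to 129 and 143 to 152 CPM. Nr4a1, an orphan receptor induced by antigen signals, and Zbtb32, a repressor of memory responses, also narrowed, by -0.57 ± 0.11 and -0.64 ± 0.11, and Id3 was not called with DSF (0.07 ± 0.09 against 0.76 ± 0.09). Among the early growth response genes, Egr2 stayed higher with IL-4+anti-CD40+DSF, at 18.6, 21.9, 18.8 and 21.6 CPM against 56.0, 53.5, 51.9 and 45.8 CPM, with -1.33 against -2.33 without DSF. Egr1 and Egr3 were on the LPS side and wider with DSF, at 1.22 against 0.87 and 0.79 against 0.31. Prdm1, which encodes the plasma cell factor Blimp-1, changed sides: it was at 74.0, 69.7, 71.5 and 71.5 CPM against 65.3, 62.4, 61.6 and 67.6 CPM with DSF (0.18 ± 0.05) and 22.7, 20.7, 25.8 and 24.2 CPM against 25.9, 28.3, 36.1 and 38.7 CPM without (-0.46 ± 0.12), with an interaction of 0.70 ± 0.13 (edgeR adjusted p = 0.000993). With total-count scaling the Prdm1 difference with DSF was not called.

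Among surface molecules, Fcgr2b and Cd38 changed side. Of 23 members, 10 were higher with LPS+DSF and 8 with IL-4+anti-CD40+DSF, against 15 and 6 without DSF, and the interaction passed for 10. Over all genes the shares were 21.8% and 23.3% with DSF, 22.3% and 17.3% without, and 14.9% for the interaction. Fcgr2b, the inhibitory IgG receptor of B cells, was at 61.2, 59.6, 61.3 and 58.7 CPM with LPS+DSF and 71.4, 70.9, 66.1 and 68.3 CPM with IL-4+anti-CD40+DSF. Without DSF it was at 164, 181, 159 and 161 CPM and 18.2, 22.2, 29.5 and 38.2 CPM. A large difference without DSF was gone and a small one of the other sign remained, with log2 fold changes of 2.63 ± 0.18 and -0.18 ± 0.05 and an interaction of -2.76 ± 0.18 (edgeR adjusted p = 8.14e-09). The call with DSF ended without libraries 1 and 2 of IL-4+anti-CD40+DSF, and the interaction was -3.16 without libraries 3 and 4 of IL-4+anti-CD40. Cd38, an ectoenzyme of naive B cells, was at 29.4, 29.6, 28.6 and 28.4 CPM against 44.5, 34.5, 45.9 and 38.4 CPM with DSF and 64.7, 64.2, 67.8 and 66.1 CPM against 13.8, 15.1, 20.9 and 28.2 CPM without. Its log2 fold change was -0.48 ± 0.08 with DSF and 1.76 ± 0.17 without, with an interaction of -2.18 ± 0.20 (edgeR adjusted p = 3.53e-07). Unstimulated cells held 111 to 158 CPM of Fcgr2b and 79.4 to 305 CPM of Cd38.

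Other surface molecules kept their side. Cd274, which encodes PD-L1, was at 957, 906, 910.5 and 903 CPM against 252, 259, 284 and 287 CPM with DSF, a log2 fold change of 1.78 ± 0.05, and of 1.77 ± 0.19 without. Their difference was 0.07 ± 0.20 with all libraries and -0.42 without libraries 3 and 4 of IL-4+anti-CD40. The activation marker Cd69 had 1.04 ± 0.06 and 1.30 ± 0.06. Gpr183, the receptor that guides B cells to follicle borders, was higher with IL-4+anti-CD40, at -1.71 ± 0.05 with DSF and -1.42 ± 0.09 without. Differences narrowed for the costimulatory ligand Icosl, from 2.50 to 1.41, for complement receptor Cr2, from -2.29 to -1.31, and for the hyaluronan receptor Cd44, from -1.43 to -0.32. Cd44 was at 533, 487, 501 and 496 CPM with IL-4+anti-CD40+DSF and 1387, 1478, 1105 and 1028 CPM with IL-4+anti-CD40, while the LPS libraries held 386 to 412 CPM with DSF and 451 to 478 CPM without. Their interactions were -1.03 ± 0.14, 1.04 ± 0.11 and 1.17 ± 0.12.

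**Figure D4:**
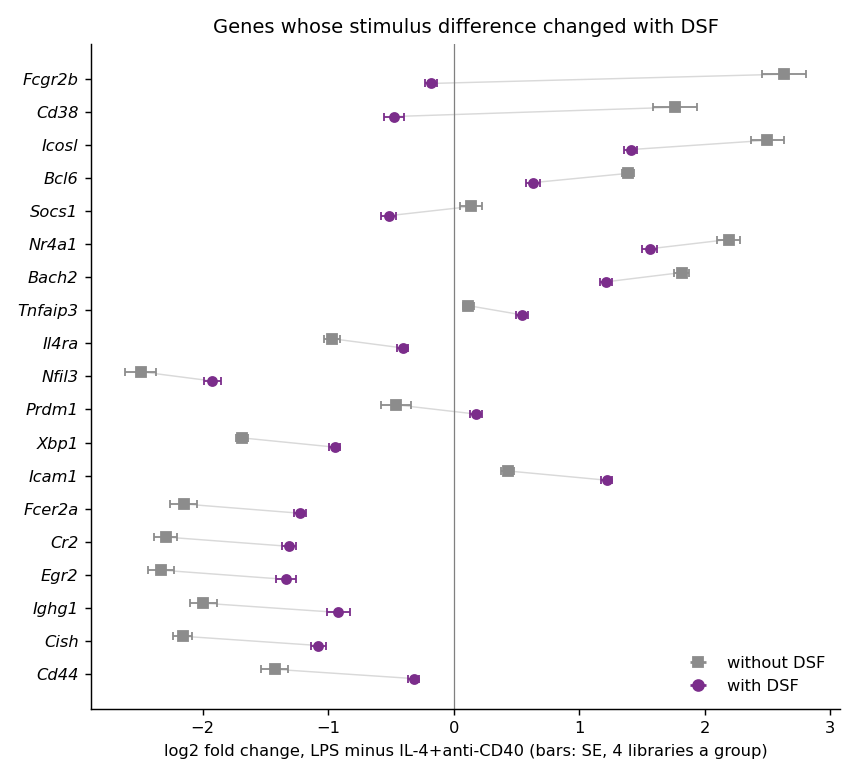
Log2 fold change of LPS over IL-4+anti-CD40 with its SE for 19 genes, without DSF (grey squares) and with DSF (purple circles), sorted by the difference between them. Fcgr2b and Cd38 cross the line at 0 from right to left and Prdm1 from left to right, and Cish, Cr2, Egr2, Ighg1 and Cd44 keep their side with values nearer 0.

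Among 9 Ig constant region and AID genes tested, 4 were higher with LPS+DSF, 2 with IL-4+anti-CD40+DSF and 3 were not called. The shares of all genes were 21.8% and 23.3%, so the second count is near its share, and the list's median was 0.19. Ighg1 and Ighe were the 2 on the IL-4+anti-CD40+DSF side. Their germline transcripts precede class switching, but counts per gene do not separate these from other transcripts of the gene. Ighg1 was at 8.98, 11.1, 9.33 and 10.9 CPM with LPS+DSF and 19.5, 18.1, 18.02 and 21.7 CPM with IL-4+anti-CD40+DSF, and at 7.503, 9.28, 8.05 and 7.37 CPM and 30.9, 38.1, 30.9 and 29.2 CPM without DSF. The log2 fold change was -0.92 ± 0.09 and -1.99 ± 0.11, with an interaction of 1.13 ± 0.15 (edgeR adjusted p = 3e-05). Ighe was near its detection limit, at 0.303, 0.343, 0.386 and 0.227 CPM against 1.61, 1.09, 1.81 and 1.34 CPM, with -2.19 ± 0.32. Ighd was higher with LPS+DSF by 0.20 ± 0.04, a call that ended with total-count scaling. Ighm and Ighg3 were not called (0.11 ± 0.05 and -0.0014 ± 0.08). Constant region genes share sequence, which makes the split of reads between them uncertain.

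Most ribosome biogenesis factors did not pass with DSF. Of 30 ribosome biogenesis factors 7 were higher with LPS+DSF and 2 with IL-4+anti-CD40+DSF, against 1 and 9 without DSF, and 7 of 30 is near the 21.8% of all genes higher with LPS+DSF. The median was 0.07 with DSF and -0.12 without, close to that of all genes, and 12 interactions passed, all toward LPS (7.92% of all genes tested shifted that way), against 26 without libraries 3 and 4 of IL-4+anti-CD40. With total-count scaling 2 members were higher with LPS+DSF and 8 with IL-4+anti-CD40+DSF. Of 27 pyrimidine enzymes 5 were higher with LPS+DSF and 11 with IL-4+anti-CD40+DSF, with a median of -0.13, beside 21.8% and 23.3% of all genes, so the first count is near that share. Nt5c3, a pyrimidine 5′-nucleotidase that interferon induces, was at 237, 249, 243 and 269 CPM against 42.5, 37.5, 54.4 and 47.6 CPM (2.47 ± 0.08), and Dck, deoxycytidine kinase, at 66.1, 60.0, 62.3 and 69.0 CPM against 16.8, 15.99, 19.8 and 18.3 CPM (1.88 ± 0.07). Thymidine kinase, Tk1, was higher with IL-4+anti-CD40+DSF, at -0.99 ± 0.09 with DSF and -1.53 ± 0.05 without. Cad, which catalyses the first steps of pyrimidine synthesis, had -0.47 ± 0.05 and -0.40 ± 0.08, and Dhodh, the next enzyme, -0.39 ± 0.11 and -0.29 ± 0.08. The Dhodh call ended without libraries 3 and 4 of IL-4+anti-CD40+DSF.

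Stress genes that were high in both DSF groups still differed in part. Of 22 tested, 7 were higher with LPS+DSF and 6 with IL-4+anti-CD40+DSF, against 1 and 15 in these directions without DSF, and 21.8% and 23.3% of all genes with DSF. Interactions passed for 11 members, all toward LPS, with a median of 0.70, and without libraries 3 and 4 of IL-4+anti-CD40 for 9, of which 7 toward LPS, with a median of 0.13. Hspa1a, an inducible HSP70, was at 2716, 2521, 3312 and 3284 CPM with LPS+DSF and 1988, 2366, 2364 and 2722 CPM with IL-4+anti-CD40+DSF, where the groups overlapped (0.35 ± 0.09). The levels without DSF were 12.0, 10.6, 27.3 and 24.9 CPM with LPS and 9.54, 14.8, 105 and 410.1 CPM with IL-4+anti-CD40. Its interaction of 3.24 ± 0.98 came down to -0.19 without libraries 3 and 4 of IL-4+anti-CD40, where it did not pass. Hspa1b is nearly identical to Hspa1a and cannot be read apart from it. Hmox1, haem oxygenase, was at 1558 to 1838 CPM and 1418 to 1804 CPM and was not called with DSF (0.10 ± 0.07). Mt1, a metallothionein that metal ions induce, was at 125, 153, 133 and 162 CPM against 254, 255, 297 and 268 CPM, and the groups did not overlap (-0.89 ± 0.07). Its interaction was 0.89 ± 1.00 with all libraries, not called, and -2.63 and called without libraries 3 and 4 of IL-4+anti-CD40. The endoplasmic reticulum stress genes Ddit3 and Chac1 were higher with IL-4+anti-CD40+DSF, at -0.72 ± 0.06 and -0.70 ± 0.09, as they were without DSF at -1.42 ± 0.11 and -1.22 ± 0.09.

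Some genes were called in only 1 of the 2 comparisons, which by itself does not show a difference between them. Of 1708 genes called without DSF and not with it, 591 had an interaction that passed, and of 2600 called with DSF and not without, 512 had one. It passed for 14.9% of all genes tested and for 1.97% of the 5546 called in neither comparison. The classes were formed from the same 16 libraries as the interaction, so their excess over 14.9% follows in part from the choice and is not a result. The rule for named genes gave Hmox1, Tnfrsf19, Ier5l, Crisp3 and Abcb1a in the first class. Tnfrsf19, a TNF receptor family member, was at 7.02, 6.13, 7.42 and 6.20 CPM with LPS and 1.83, 1.16, 0.950 and 0.839 CPM with IL-4+anti-CD40, and at 1.21 to 1.77 and 0.908 to 1.25 CPM with DSF (interaction -1.95 ± 0.31). Ier5l was lower with IL-4+anti-CD40 alone, at 0.5505 to 1.15 CPM against 3.21 to 4.08 CPM with LPS, and was at 3.58 to 4.68 and 3.49 to 4.51 CPM with DSF. Crisp3 and the drug transporter Abcb1a had interactions of -1.67 ± 0.31 and -1.66 ± 0.26, and Hmox1 of 3.06 ± 0.82, which was 0.20 and did not pass without libraries 3 and 4 of IL-4+anti-CD40. The second class gave Cilp2, Apol7c, Olr1, Adora2b and P2rx5. Cilp2 was at 28.3, 34.4, 31.6 and 32.7 CPM against 8.12, 10.9, 10.5 and 10.1 CPM with DSF and 1.83, 1.44, 1.68 and 2.68 CPM against 0.872, 0.556, 2.67 and 2.52 CPM without, and its interaction of 1.55 ± 0.39 was 0.38 and did not pass without those libraries. Olr1, a receptor for oxidised lipoprotein, was at 3.94, 2.91, 3.02 and 3.17 CPM against 7.87, 8.23, 8.04 and 8.82 CPM with DSF, and at 5.53 to 7.54 and 5.14 to 8.08 CPM without, where the groups overlapped. Interactions were -1.34 ± 0.20 for Olr1, -1.20 ± 0.30 for the adenosine receptor Adora2b, -1.39 ± 0.34 for Apol7c and 1.19 ± 0.32 for the ATP-gated channel P2rx5. The last was 0.79 and not called without libraries 3 and 4 of both IL-4+anti-CD40 groups, as was that of Apol7c at -0.96. A further 129 genes were called in opposite directions with and without DSF, 61 of them higher with LPS only when DSF was present. All 129 had an interaction that passed, which the choice of opposite calls largely fixed in advance. In this class the rule gave Fcgr2b and Cd38 above, Hspa1a, Hspa1b and 4930562C15Rik, the last at 0.44 ± 0.17 with DSF, a call that ended in DESeq2. Hspa1b had 0.28 ± 0.08 with DSF, which also ended in DESeq2.

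The second experiment, 1 library for each condition with 20168650 counts for LPS+DSF and 16049295 for IL-4+anti-CD40+DSF, had no replicates and allowed no test. With a mean of at least 10 counts over its libraries, 439 of 14275 genes (3.08%) were at least 2-fold higher with LPS+DSF and 291 (2.04%) with IL-4+anti-CD40+DSF. Most of them had low counts: with a mean of at least 50 counts, 85 and 74 were left. Of the 763 genes at least 2-fold higher with LPS+DSF in the first experiment, 661 were measured, 60.5% had the same sign, and 60 (9.08%) were at least 2-fold. On the other side 274 were measured, 78.5% had the same sign and 44 (16.1%) were at least 2-fold. A positive ratio was found for 50.5% of the 14275 genes. Across 13727 genes measured in both experiments, Pearson's r between the second experiment's ratio and the first's log2 fold change, both with DSF, was 0.23. Spearman's rho was 0.30, and both are given as a description over genes.

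The interferon-stimulated list did not separate the stimuli there. Its median log2 ratio was 0.02 with DSF, between -0.87 and 1.15, and 0.25 without. Ifit3 was at 8.10 CPM with LPS+DSF and 7.31 CPM with IL-4+anti-CD40+DSF, against 205 and 89.1 CPM without DSF and 397 CPM in unstimulated cells. The unstimulated library of the second experiment thus already exceeded those of the first, at 10.5 to 30.1 CPM. Inflammatory genes did separate: 14 of 27 were at least 2-fold higher with LPS+DSF, with a median of 1.07. Il12b was at 21.0 CPM against 1.14 CPM, Tnf at 68.9 against 22.6 CPM, and Nfkbiz at 596 against 231 CPM.

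Of 18 members of the IL-4 and STAT6 list measured in the second experiment, 9 were at least 2-fold higher with IL-4+anti-CD40 without DSF and 3 with DSF, and the median was -1.01 without and -0.22 with it. Cish was at 10.6 CPM with LPS and 119.7 CPM with IL-4+anti-CD40, and at 34.8 and 39.9 CPM with DSF. Nfil3 was at 13.0 and 194 CPM without DSF and 14.2 and 16.7 CPM with it. Socs3, higher with LPS in the first experiment, was on the other side here, at -2.26 without DSF and -0.45 with it. Batf was at 1.08 without DSF and 0.10 with it. Cd69, of another list and also higher with LPS in the first experiment, was at -0.99 without DSF and 0.07 with it. Socs1 was higher with IL-4+anti-CD40 in both, with a log2 ratio of -1.91 with DSF and -2.52 without. Its difference was thus smaller with DSF, whereas in the first experiment it shifted toward IL-4+anti-CD40 with DSF, by -0.60. Ighe had -1.65 with DSF and -0.79 without, on 8 and 24 counts with DSF. For Fcer2a, and for Cr2, Cd44 and Egr2 of other lists, the log2 ratio with DSF was 0.04 for Fcer2a, 0.03 for Cr2, 0.07 for Cd44 and 0.21 for Egr2, against -0.90, -0.91, -1.17 and -2.33 without. Casp6 kept its side, at 6.27 CPM against 20.4 CPM with DSF. Fcgr2b was at 112 CPM and 35.6 CPM without DSF and at 67.1 and 70.0 CPM with it.

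**Figure D5:**
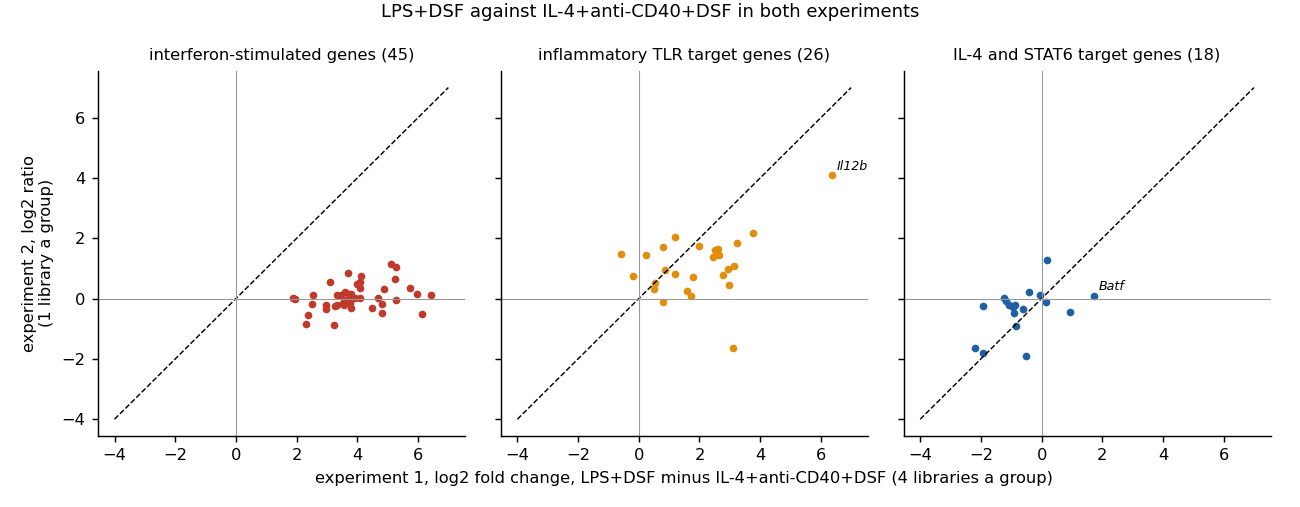
Log2 fold change in the first experiment on the x axis (4 libraries a group) and log2 ratio in the second on the y axis (1 library a group), both LPS+DSF over IL-4+anti-CD40+DSF, for members of 3 lists measured in both, with a dashed line of equality. Interferon-stimulated genes lie near 0 on the y axis, with a median over the list of 0.02, while most inflammatory genes, Il12b highest among them, lie above 0.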

How the data were processed

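RNA-seq of cultured mouse spleen B cells was deposited by the authors as raw read counts per gene for 2 experiments, made per the submitters' processing notes with HISAT2 2.0.5, featureCounts 1.5.0-p3 and the mm10 build. The strand setting was not given in the sources used here, so reads of overlapping antisense genes cannot be told apart. Deposited FPKM columns were not used. Counts of the first experiment were filtered with filterByExpr, scaled by the trimmed mean of M values and tested with edgeR 4.0.16 (quasi-likelihood, R 4.3.3, Benjamini-Hochberg threshold 0.05) on 4 against 4 libraries. The interaction was fitted on 16 libraries. The second experiment has 1 library a group, and its ratios used a prior count of 2 and a mean of at least 10 counts. Named genes were members of 20 gene lists, the 10 largest called and non-overlapping changes per direction with at least 10 counts in each library of the higher group, and the 5 largest interactions per class with a mean of at least 50 counts. Some list members are not reported here by name. Members and lists were chosen with earlier results of these data known. The fits were tested on simulated data. Alternatives covered DESeq2 1.42.0, scalings, filters, a joint fit, a replicate block and left-out libraries. Promoter windows are RefSeq's on GRCm38.p6.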

Additional observations from a re-analysis of the deposited data

Results flagged for a closer look

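For 58 of the 111 genes named, the stimulus difference with DSF differed from that without it by the interaction test over 16 libraries (edgeR, adjusted p under 0.05), 28 toward LPS and 30 toward IL-4+anti-CD40, beside 14.9% of all genes tested, and some of the genes were named because of their interaction. Without libraries 3 and 4 of IL-4+anti-CD40, 8 of these calls ended and 19 others were added, giving 24 toward LPS and 45 toward IL-4+anti-CD40. The 8 were those of Azin2, Cd40, Hspa1a, Hspa1b, Hmox1, Cilp2, 4930562C15Rik and Lyz2. The fit that added the 4 unstimulated libraries ended 36 of the 58 calls. Values below are log2 differences, with DSF minus without.

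Of the interferon-stimulated and inflammatory genes named here most did not pass. Those that passed toward IL-4+anti-CD40, together with the co-receptor Cd14, had -0.80 for Isg20, -0.71 for Gbp3, -1.22 for Oas2, -0.84 for Ifi204, -1.35 for Il1b, -2.18 for Saa3, -1.72 for Lcn2, -1.44 for Edn1 and -1.66 for Cd14. Nfkbia at 0.35 and Tnfaip3 at 0.49 passed toward LPS.

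Of 20 members of the IL-4 and STAT6 list 7 passed toward LPS and 1 toward IL-4+anti-CD40, with 1.14 for Cish, 0.62 for Il4ra, 0.99 for Fcer2a, 0.63 for Nfil3, 2.69 for Ighe, 1.13 for Ighg1 and 0.80 for Xbp1, while Socs1 had -0.60. Ighd, of another list, had -0.36. Azin2 had -2.36, a fitted value on a gene near 0 counts with LPS. Among genes of CD40 and NF-κB signalling, Icam1 had 0.85, Nfkb2 0.37, Traf1 0.34, Cd40 0.24 and Ccr7 -0.64.

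Transcription factors gave -0.54 for Bach2, -0.70 for Bcl6, -0.57 for Nr4a1, -0.62 for Id3, -0.64 for Zbtb32, 0.40 for Egr1, 1.06 for Egr2, 0.54 for Egr3 and 0.70 for Prdm1. Surface molecules gave -1.03 for Icosl, 1.17 for Cd44, 1.04 for Cr2, -2.18 for Cd38 and -2.76 for Fcgr2b. The pyrimidine enzymes Dck and Tk1 had -0.45 and 0.60.

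Stress genes that passed toward LPS with all 16 libraries were at 3.24 for Hspa1a, 3.27 for Hspa1b, 3.06 for Hmox1, 0.76 for Ddit3 and 0.58 for Chac1. The remaining values were -1.95 for Tnfrsf19, -1.82 for Ier5l, -1.67 for Crisp3, -1.66 for Abcb1a, 1.55 for Cilp2, -1.39 for Apol7c, -1.34 for Olr1, -1.20 for Adora2b, 1.19 for P2rx5, 2.07 for 4930562C15Rik and -0.44 for Lyz2.

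In 8 of 221 gene and group combinations with DSF, 1 library lay apart from the other 3 by Dixon's ratio at the 95% level, and chance gives about 1 in 20. With LPS+DSF these were the highest library for Ifit2 (789.7 CPM), Cd274 (957 CPM) and Crisp3 (6.17 CPM) and the lowest for Csf1r (10.5 CPM). With IL-4+anti-CD40+DSF they were the highest for Nfkb2 (503 CPM) and Tlr4 (6.26 CPM) and the lowest for Fcer2a (1038 CPM) and Cad (76.8 CPM).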

How the results depend on the processing

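With total counts 5316 genes were higher with IL-4+anti-CD40+DSF, 4712 with IL-4+anti-CD40 without DSF and 3376 in both, and Ccr7 with DSF was called at -0.13, while DESeq2's size factors gave 3224 and 3211 calls with DSF. DESeq2 gave 3108 and 3044. A minimum log2 fold change of 1 left 763 and 332 genes with DSF, 1161 and 478 without, 603 and 222 in both, and 185 and 167 interactions toward LPS and toward IL-4+anti-CD40. Adding the 4 unstimulated libraries to the fit gave 2136 and 2737 calls with DSF and 205 and 710 interactions. It ended 50 calls on named genes, 36 of them interactions, and the cause was not tested. In the second experiment a mean of at least 50 counts left 85 and 74 genes past 2-fold in place of 439 and 291, so most genes past 2-fold there had low counts.

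Leaving out 1 library at a time gave 2833 to 3010 genes higher with LPS+DSF and 2912 to 3204 higher with IL-4+anti-CD40+DSF, 954 to 1261 interactions toward LPS and 884 to 1268 toward IL-4+anti-CD40. The following leave-outs were chosen after seeing the data. Without libraries 3 and 4 of IL-4+anti-CD40, interactions changed sign for Cd274 (-0.42), Hspa1a (-0.19), Hspa1b (-0.26) and Mt1 (-2.63), and without libraries 3 and 4 of both IL-4+anti-CD40 groups they were -0.34, -0.069, -0.13 and -2.55. Without libraries 1 and 2 of IL-4+anti-CD40+DSF the Ccl22 difference was -0.23.

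The replicate numbers did not pair the libraries: same-numbered libraries with DSF correlated at -0.06, -0.06, -0.02 and 0.02 after removing group means, and no library with DSF correlated best with its own number. With the replicate block 2967 and 3153 genes were called with DSF, 2973 and 2164 without, and 1134 and 1025 interactions passed, and among named genes it ended the call with DSF of 4930562C15Rik and the interactions of Oas2, Saa3, Azin2, Hspa1a and Hspa1b and added that of Ighm, and it changed no other call on a named gene.

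At 17898147 to 23632992 counts a library, genes such as Ighe, Chil4 and Il12b with IL-4+anti-CD40+DSF rest on few reads, and their fold changes depend on the prior count. With 4 libraries a group, p-values carry the spread of these libraries only.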
